A study of Mus musculus with 20 samples.

Results

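The genes described here make, hold and remove the hyaluronan coat of dermal fibroblasts and carry the heparan sulfate chains on their surface. They are the hyaluronan synthases Has1 and Has2, the hyaluronidase Hyal1, the hyaluronan receptor Cd44, the versican gene Vcan, the glypicans Gpc1, Gpc3 and Gpc6, and the syndecans Sdc1 and Sdc2. The 10 genes were chosen by name for these roles, with earlier results of these data known. Each was read from the probe sets annotated to it alone, and where it had several, its level came from the brightest one by the mean over the 20 arrays. Of the 10 genes, 8 had such a probe set, among 17097 genes measured, with 21 probe sets between them. Gpc3 and Sdc1 were not analysed here.

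Fibroblasts were sorted from the dermis of female mice, and the RNA of 10000 cells per mouse was amplified over 20 cycles and hybridized to 1 array per mouse, with 5 mice in each of 4 groups. The labels name no strain, genotype or allele. Young ND mice were 4 weeks old and had normal diet (ND) for 4 weeks, and their age at collection is not stated in the sources used here. The mice of the 3 old groups were 9 months old at the start and 18 months old at collection. Normal diet throughout those 9 months made the Old ND group. Old CR mice ate normal diet for 2 months and then had 30% caloric restriction (CR) for 7 months. Old CR-ND mice began with the 7 months of restriction and ended with 2 months of normal diet. The sort took cells positive for Pdgfra and CD34 and negative for EpCAM, CD31, CD24, CD117 and CD45. The values describe the cells that this sort took, whose purity was not measured here. In such bulk samples, fewer cells of a type and less RNA per cell cannot be told apart.

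Hyaluronan is a long, unsulfated sugar chain that synthases at the plasma membrane push out into the matrix, and hyaluronidases cut it into pieces. CD44 anchors it to the cell, and versican, a large proteoglycan with chondroitin sulfate chains, binds along it and helps form the loose, water-rich matrix around fibroblasts. Glypicans, tied to the membrane by a lipid anchor, and syndecans, which span it, carry heparan sulfate chains that bind growth factors, and enzymes inside and outside the cell build and trim these chains.

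All values are log2 array levels, so a difference of 1 is a doubling. Differences are given ± the standard error of limma's fit over all 20 arrays, group means ± SD with n = 5, and a gene is called changed at a Benjamini-Hochberg adjusted p under 0.05 over 17097 genes. Array medians lay between 5.27 and 5.34, and no 2 arrays carried the same values. The number of arrays limits the precision. The array numbers in the titles form 2 separate runs of 13 and 7 arrays. The first run held 3 arrays each of Young ND, Old CR-ND and Old ND and 4 of Old CR, which left 2 of each of the former and 1 of Old CR for the second. With groups held constant, 2934 genes differed between the runs, among them Has1, Has2, Hyal1, Cd44 and Sdc2, so within-run values are given where a result turns on them. Nothing in the labels says what the runs are. Fibroblast markers averaged 10.76 to 11.01 over the arrays. Of their 9 genes, 3 fell in Old ND, 3 in Old CR and 1 in Old CR-ND against Young ND. In both Old ND and Old CR, 2 of the 3 were Col1a1 and Col3a1. Of all genes, 6.49% were called lower in Old ND, 5.56% in Old CR and 3.82% in Old CR-ND. Of the 2 genes whose products the sort selected for, Pdgfra and Cd34, 1 fell in Old ND against Young ND. In Old CR and Old CR-ND 0 of these 2 were called against Young ND.

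Has2, Cd44 and Vcan differed among the 4 groups, and each was highest in Young ND. Has2 was lower in all 3 old groups, Cd44 was lower in Old CR, and Vcan was lower in Old CR and Old CR-ND. Gpc6 was higher in Old ND, by 0.25 on its brightest probe set and by 0.57 with its probe sets averaged. Has1, Hyal1 and Gpc1 passed in no comparison, and Sdc2 passed on probe sets other than its brightest, which passed in no comparison over all arrays. Against Young ND, 2 of 8 genes were called in Old ND, where 10.9% of all genes were called, 3 of 8 in Old CR, where 12.7% were called, and 2 of 8 in Old CR-ND, where 7.04% were called. The 3 in Old CR and the 2 in Old CR-ND were all lower, against 5.56% and 3.82% of all genes called lower. These 3 comparisons share the Young ND arrays. The moderated F test over the 4 groups called 3 of 8 genes and 12.9% of all genes.

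No gene of the 8 was called between the old groups. Old CR against Old ND gave 0 calls among the 8 in limma, with 1 at an unadjusted p under 0.05, while 2.39% of all genes were called, 1.57% higher and 0.819% lower. Old CR-ND against Old ND gave 0 calls, with 0 at an unadjusted p under 0.05 and 0.00585% of all genes called. Old CR-ND against Old CR gave 0 calls, with 1 at an unadjusted p under 0.05 and 0.333% of all genes called. In the same order of comparisons, 2477, 868 and 1674 of all 17097 genes had an unadjusted p under 0.05 in limma. The median difference of the 8 genes was -0.05 in Old ND, -0.02 in Old CR and -0.06 in Old CR-ND against Young ND, beside 0 for all genes.

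**Figure D1:**
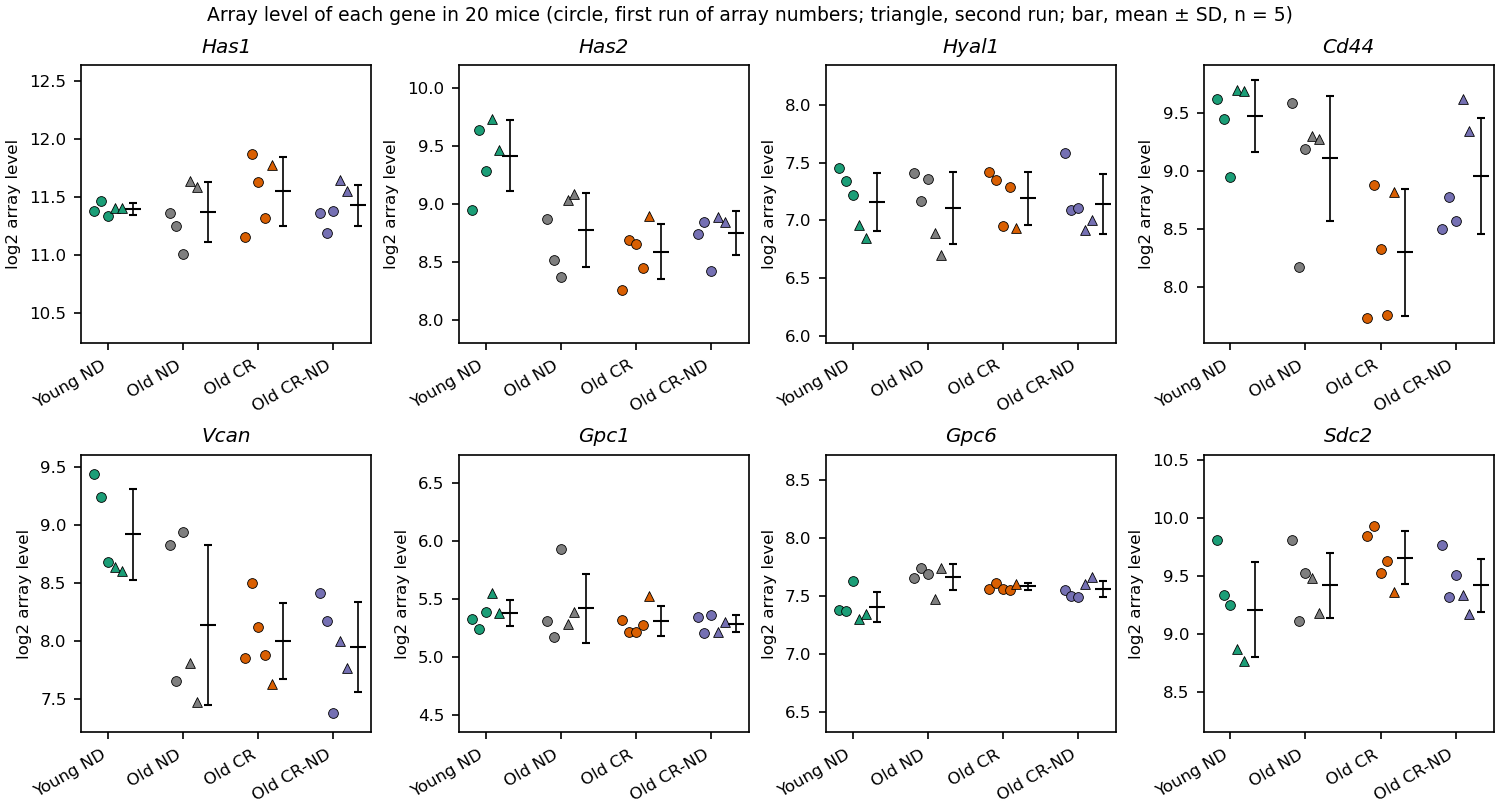
Log2 array level of each of the 8 genes in the 20 mice, by group, with circles for the first run of array numbers, triangles for the second and bars for the mean ± SD of 5 mice; each panel has its own vertical range. Has2 in Old CR and Old CR-ND lies below every Young ND array, and the lowest Old CR arrays of Cd44 are at 7.73 and 7.76.

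**Figure D2:**
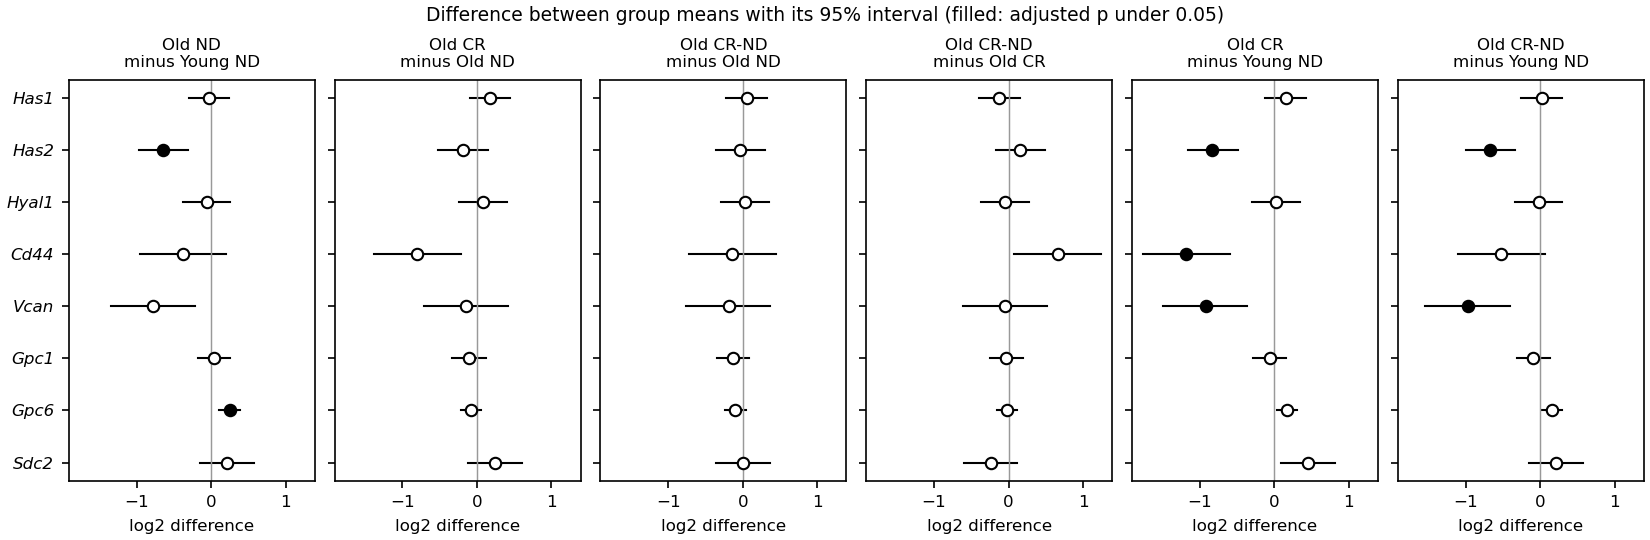
Difference between group means on the log2 scale with its 95% interval from limma for the 8 genes in 6 comparisons, filled where the adjusted p is under 0.05. Filled points stand only in the comparisons with Young ND, and the Cd44 intervals of Old CR against Old ND (-1.38 to -0.22) and of Old CR-ND against Old CR (0.08 to 1.24) lie on 1 side of 0 without passing the adjusted threshold.

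Has1, a hyaluronan synthase, passed in no comparison. Its mean level was 11.40 ± 0.05 in Young ND, 11.37 ± 0.26 in Old ND, 11.55 ± 0.30 in Old CR and 11.43 ± 0.18 in Old CR-ND, and the groups overlapped. The difference of Old ND from Young ND had a 95% interval of -0.30 to 0.24, and that of Old CR from Young ND one of -0.12 to 0.42.

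Has2, a synthase that makes long hyaluronan chains, was highest in Young ND, at 8.95, 9.64, 9.29, 9.74 and 9.47 in the 5 mice. The Old ND mice stood at 8.87, 8.52, 8.37, 9.04 and 9.09. Old CR mice stood at 8.26, 8.69, 8.66, 8.45 and 8.90, and Old CR-ND mice at 8.74, 8.85, 8.42, 8.89 and 8.85. All arrays of Old CR and Old CR-ND lay below the lowest Young ND array, while 2 Old ND arrays lay above it. Has2 fell by 0.64 ± 0.16 in Old ND (1.56-fold, adjusted p = 0.0105), by 0.83 ± 0.16 in Old CR (1.77-fold, adjusted p = 0.00126) and by 0.67 ± 0.16 in Old CR-ND (1.59-fold, adjusted p = 0.0117). The order of the means was Young ND, Old ND (8.78), Old CR-ND (8.75) and Old CR (8.59), and the old groups did not differ beyond their spread. Old CR minus Old ND was -0.19 with an interval of -0.52 to 0.15, and Old CR-ND minus Old CR was 0.16 with an interval of -0.17 to 0.49.

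Has2 was also higher in the second run than in the first, by 0.34 ± 0.09 (adjusted p = 0.016). Within the first run the difference of Old ND from Young ND was -0.71 (adjusted p = 0.0276), and -0.54 was found within the second (adjusted p = 0.0376). For Old CR it was -0.78 (adjusted p = 0.0108) and -0.70 (adjusted p = 0.0419), the latter with 1 Old CR array that was assumed to vary like the others. For Old CR-ND it was -0.62 in the first run, where the call ended (adjusted p = 0.0738), and -0.73 in the second (adjusted p = 0.0129). A second probe set of the gene, matched to the same transcript record, fell by 0.70 ± 0.21 in Old ND (adjusted p = 0.0403) and by 0.75 in Old CR (adjusted p = 0.0249), and its -0.60 in Old CR-ND did not pass (adjusted p = 0.106). Those p are adjusted over all 28898 probe sets with 1 gene. Of the calls on this second probe set, that in Old ND was lost on leaving out any 1 of 6 arrays (adjusted p up to 0.116) and that in Old CR on leaving out any 1 of 5 (up to 0.0802).

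Hyal1, a lysosomal enzyme that cuts hyaluronan, passed in no comparison. It averaged 7.16 ± 0.25 in Young ND, 7.11 ± 0.31 in Old ND, 7.19 ± 0.23 in Old CR and 7.14 ± 0.26 in Old CR-ND. The interval of Old ND minus Young ND was -0.38 to 0.26. Its level was lower in the second run than in the first, by 0.40 ± 0.08 (adjusted p = 0.00127).

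Cd44, the main cell-surface receptor for hyaluronan, had its lowest mean in Old CR, the mice on restriction at collection (8.30 ± 0.55, against 9.48 ± 0.31 in Young ND). Young ND mice had levels of 9.62, 9.45, 8.95, 9.70 and 9.69, and Old ND mice 9.59, 8.17, 9.19, 9.30 and 9.28. Old CR mice had 7.73, 8.88, 8.33, 7.76 and 8.82, and Old CR-ND mice 8.50, 8.78, 8.57, 9.62 and 9.35. Every Old CR array was below every Young ND array, and the Old ND and Old CR-ND arrays overlapped both. Old CR was 1.18 ± 0.28 lower than Young ND (2.26-fold, adjusted p = 0.00637), with -1.17 within the first run (adjusted p = 0.0337), -0.87 within the second (adjusted p = 0.0149, from 1 Old CR array assumed to vary like the others), and -1.07 with runs blocked in the fit (adjusted p = 0.00267). The second run was higher by 0.53 ± 0.17 for Cd44 (adjusted p = 0.0374).

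On the brightest probe set the other Cd44 differences did not pass. Old ND minus Young ND was -0.38 ± 0.28 (adjusted p = 0.472), and Old CR-ND minus Young ND was -0.52 ± 0.28 (adjusted p = 0.33). Old CR minus Old ND was -0.80 ± 0.28 (unadjusted p = 0.00891, adjusted p = 0.146). It passed without Old ND replicate 2, the Old ND array at 8.17, with -1.04 and an adjusted p of 0.0413. Old CR-ND minus Old CR was 0.66 ± 0.28 (adjusted p = 0.41). In the order Young ND, Old ND, Old CR-ND, Old CR, no neighbours differed beyond the threshold on this probe set, and only the 2 ends did. The F test over the 4 groups (adjusted p = 0.0323) depended on each of 7 arrays, Old CR replicates 1, 3 and 4 and Young ND replicates 1, 2, 4 and 5, and leaving out any 1 of them ended its call (adjusted p from 0.0602 to 0.102).

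All 4 probe sets of Cd44 were lower in Old CR than in Young ND, by 1.07 to 1.35, and all 4 were called, where 12.2% of the 28898 probe sets were called. The set with the largest difference lost its call on leaving out Old CR replicate 1 or Young ND replicate 4 or 5 (adjusted p from 0.053 to 0.0597). In Old CR-ND the 4 stood 0.51 to 0.81 below Young ND, and 1 of the 4 was called (-0.81 ± 0.23, adjusted p = 0.0425), a call lost on leaving out any 1 of 7 arrays, Old CR-ND replicates 1, 2 and 3 and Young ND replicates 1, 2, 4 and 5 (adjusted p up to 0.129). The 4 also stood lower in Old CR than in Old ND, by 0.49 to 0.80, with 0 of the 4 called, where 2.13% of all probe sets were called. In Old CR-ND against Old ND 0 of the 4 were called by limma, beside 0.0381% of all probe sets.

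Leukocytes and keratinocytes carry CD44 as well. The leukocyte gene Ptprc stood at 3.25 in both Young ND and Old CR, below the lower quartile of all 20 arrays (4.11 to 4.25). Over 8 macrophage and dendritic cell markers the mean level ranged from 5.29 to 5.44 in Young ND, 5.34 to 5.62 in Old ND, 5.25 to 5.44 in Old CR and 5.39 to 5.71 in Old CR-ND, and 2, 2, 3 and 3 of the 8 lay at or below the lower quartile. Single markers of this list moved in opposite directions. Csf1r fell from 7.68 in Young ND to 6.48 in Old ND (adjusted p = 1.41e-07), 6.71 in Old CR (adjusted p = 2.85e-06) and 6.76 in Old CR-ND (adjusted p = 9.32e-06). Cd68 rose by 1.03 in Old CR against Young ND (adjusted p = 0.039). Cd74 rose by 0.48 in Old ND against Young ND (adjusted p = 0.0372) and fell by 0.61 in Old CR against Old ND (adjusted p = 0.0276). Over 10 keratinocyte markers the mean level ranged from 6.13 to 7.24, 5.72 to 8.03, 6.44 to 7.05 and 6.58 to 7.60. In Young ND the 10 ran from 4.29 (Lor) to 8.85 (Krt5), and 0 of the 10 were called in any of the 6 comparisons. The part of leukocytes and keratinocytes in the Cd44 levels was not tested. Cd24a, whose product the sort selected against, was also lower than in Young ND (6.73), at 5.56 in Old ND, 4.83 in Old CR and 5.43 in Old CR-ND, and its part was not tested either. Over 7 dermal papilla markers the mean level ranged from 4.63 to 5.02 in Young ND, 4.59 to 5.11 in Old ND, 4.42 to 4.64 in Old CR and 4.59 to 4.92 in Old CR-ND, and 3 of the 7 lay at or below the lower quartile in each group. Of the 7, Crabp1 fell in Old CR against Young ND, from 9.62 to 8.11 (-1.51 ± 0.48, adjusted p = 0.0442), and stood at 8.94 in both other old groups. Over 6 mural cell markers the mean ranged from 5.48 to 5.70, 5.53 to 5.86, 5.87 to 5.98 and 5.78 to 5.94. Kcnj8, 1 of the 6, rose against Young ND by 2.32 in Old CR (adjusted p = 7.42e-06), 1.62 in Old CR-ND (adjusted p = 0.000696) and 1.03 in Old ND (adjusted p = 0.0168). Des, another of the 6, fell in Old ND against Young ND (-0.35 ± 0.11, adjusted p = 0.0407). Rgs5, Notch3, Acta2 and Myh11, the rest of this list, were not called in any comparison. Over 8 endothelial markers the mean ranged from 4.88 to 5.20, 4.87 to 5.29, 5.12 to 5.35 and 5.19 to 5.41. Tek, 1 of the 8, rose against Young ND by 1.02 in Old ND (adjusted p = 0.0239), 1.63 in Old CR (adjusted p = 0.000542) and 1.43 in Old CR-ND (adjusted p = 0.00289). No other gene of the 8 was called in any comparison. The fibroblast marker Thy1 fell by 0.37 in Old CR against Young ND (adjusted p = 0.00564). The part of these genes in the Cd44 and Vcan levels was not tested.

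Vcan, which encodes versican, was likewise highest in Young ND, at 9.44, 9.24, 8.68, 8.64 and 8.60. Old ND mice spread widely, at 8.83, 7.65, 8.94, 7.81 and 7.47. Old CR mice had 7.85, 8.50, 8.12, 7.88 and 7.63, and Old CR-ND mice 8.41, 8.17, 7.38, 8.00 and 7.77. All Old CR and Old CR-ND arrays lay below the lowest Young ND array, and 2 Old ND arrays lay among the Young ND values. Vcan was 0.92 ± 0.27 lower in Old CR (1.90-fold, adjusted p = 0.0264) and 0.97 ± 0.27 lower in Old CR-ND (1.96-fold, adjusted p = 0.0304) than in Young ND. In Old ND it averaged 8.14 ± 0.69 against 8.92 ± 0.39 in Young ND, a difference of -0.78 ± 0.27 that missed the threshold (adjusted p = 0.0706).

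These Vcan values lay close to the threshold on both sides. The Old CR call ended without any 1 of Young ND replicates 1 and 2 and Old CR replicates 1, 4 and 5 (adjusted p up to 0.0752), and the Old CR-ND call without any 1 of Young ND replicates 1 and 2 and Old CR-ND replicates 3, 4 and 5 (up to 0.103). The F test (adjusted p = 0.045) was lost on leaving out any 1 of 14 arrays (adjusted p from 0.0519 to 0.151), and it held only on leaving out Old ND replicate 1, 2, 3 or 5, Old CR replicate 2 or Old CR-ND replicate 1. In the first run alone the differences from Young ND were -0.65 for Old ND (adjusted p = 0.293), -1.03 for Old CR (adjusted p = 0.0542) and -1.13 for Old CR-ND (adjusted p = 0.0762). Within the second they were -0.98 (adjusted p = 0.00346), -0.99 (adjusted p = 0.0148, again from 1 Old CR array assumed to vary like the others) and -0.73 (adjusted p = 0.0222). With the run as a block all 3 passed, Old ND at -0.78 (adjusted p = 0.0252), Old CR at -1.02 (adjusted p = 0.00434) and Old CR-ND at -0.97 (adjusted p = 0.00857). Old ND also passed without Old ND replicate 1 (-0.95, adjusted p = 0.0276) or replicate 3 (-0.98, adjusted p = 0.0187), the 2 mice with the highest levels of that group. No pair of old groups passed, with Old CR minus Old ND at -0.14 (interval -0.71 to 0.42) and Old CR-ND minus Old CR at -0.05 (interval -0.61 to 0.51).

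Vcan had 5 probe sets, and all 5 were lower in each old group than in Young ND. In Old ND the differences ran from -0.78 to -0.30, and 1 of the 5 was called, where 10.7% of all probe sets were called. The called one was dim, at 4.39 in Young ND and 3.93 in Old ND (-0.46 ± 0.11, adjusted p = 0.00774), close to the lower quartile of the arrays. In Old CR 3 of the 5 were called, where 12.2% of all probe sets were called, and in Old CR-ND 2 of the 5, where 6.54% were called. The same dim set was among those called in both, at 3.87 in Old CR and 3.81 in Old CR-ND. In Old CR-ND the other called set was the brightest, and sets 2 and 3 by level did not pass (adjusted p = 0.345 and 0.11). Versican is made in several splice forms, and the probe sets come from several transcript records. Which forms they see was not analysed here.

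The promoters of Cd44 and Vcan are shown because both genes, like Has2, were called lower in Old CR than in Young ND; the Has2 promoter was not used here. The sequences are those of RefSeq on GRCm38.p6, where 6 of the 10 genes matched. They run 5′ to 3′ on the gene's strand, and capitals mark motifs found on either strand. The 250 bases before the start were searched for 5 motifs. The box near many start sites was spelled TATAAA. The GC box, bound by Sp family factors, was spelled GGGCGG. The box bound by NF-Y factors was spelled CCAAT. The core bound by TCF/LEF factors was spelled CTTTGA. The site bound by AP-1 factors was spelled TGANTCA. The matches shown do not overlap each other. Cd44 (chromosome 2, gene at 102811141 to 102901669, minus strand) is shown over chr2:102901666-102901915, and none of the 5 motifs lay in it. Vcan (chromosome 13, gene at 89655309 to 89743027, minus strand) is shown in 3 stretches of 30 bases that hold its motifs, since the window before the start used lies inside the annotated span of the gene.
Cd44: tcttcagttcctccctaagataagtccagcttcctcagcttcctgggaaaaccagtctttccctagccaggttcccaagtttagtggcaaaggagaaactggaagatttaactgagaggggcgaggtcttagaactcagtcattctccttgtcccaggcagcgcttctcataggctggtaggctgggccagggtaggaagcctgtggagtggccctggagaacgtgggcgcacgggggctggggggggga
Vcan, GC box 219 bases before the start, chr13:89742714-89742743: agtagcagcccaGGGCGGggaagagggggt
Vcan, CCAAT on the opposite strand 103 bases before the start, chr13:89742598-89742627: cacccccagccgATTGGtacttctcatcag
Vcan, GC box on the opposite strand 10 bases before the start, chr13:89742513-89742542: caggctgagggagctcctttCCGCCCctcc

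The motifs are common. Of 32851 promoters of the same length, 32.7% hold the GC box, 33.8% CCAAT, 12.4% TATAAA, 13.8% CTTTGA and 6.75% TGANTCA. The Vcan window had a GC content of 62.4% and that of Cd44 56.4%, beside a median of 52.4%. A match or its absence here describes only these letters.

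**Figure D3:**
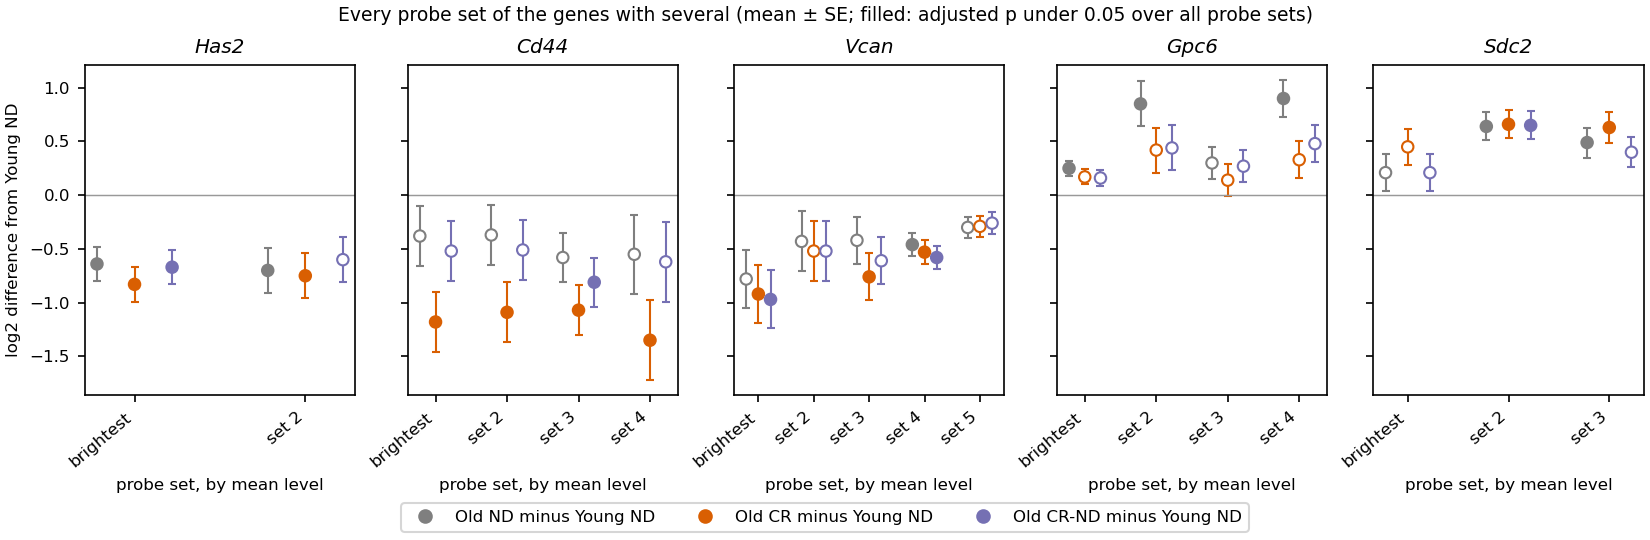
Difference of each old group from Young ND on the log2 scale, mean ± SE, for every probe set of the 5 genes with several, from the brightest to the dimmest, filled where the adjusted p over all probe sets is under 0.05. The 4 probe sets of Cd44 are filled in Old CR, the 5 of Vcan all lie below 0, and for Sdc2 sets 2 and 3 are filled in Old ND where the brightest is not.

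Among the glypicans, Gpc6 was higher in Old ND than in Young ND, by a small amount on its brightest probe set. Gpc1 passed in no comparison. Gpc6 stood at 7.38, 7.37, 7.63, 7.30 and 7.34 in Young ND and at 7.65, 7.74, 7.69, 7.47 and 7.74 in Old ND. Old CR mice had 7.56, 7.61, 7.56, 7.55 and 7.60, and Old CR-ND mice 7.55, 7.50, 7.49, 7.60 and 7.66. A single Young ND array, that of replicate 3 at 7.63, reached into the Old ND range, and the other 4 lay below all old arrays. Gpc6 rose by 0.25 ± 0.07 in Old ND (1.19-fold, adjusted p = 0.0162), with 0.23 within the first run (adjusted p = 0.102), 0.29 within the second (adjusted p = 0.306) and 0.25 with runs blocked in the fit (adjusted p = 0.0139). The call ended with array weights (0.21, adjusted p = 0.0681) and with only the 2 groups in the fit (0.25, adjusted p = 0.0956). Old CR stood 0.17 ± 0.07 (adjusted p = 0.106) and Old CR-ND 0.16 ± 0.07 (adjusted p = 0.197) above Young ND. Without Young ND replicate 3 both passed, at 0.23 (adjusted p = 0.0189) and 0.21 (adjusted p = 0.0449).

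The 4 probe sets of Gpc6 gave differences of unequal size. A second set from the same record rose by 0.85 ± 0.21 in Old ND (1.81-fold, adjusted p = 0.0104) and the dimmest by 0.90 ± 0.17 (1.86-fold, adjusted p = 0.00116), while set 3 differed by 0.30 ± 0.15 without passing (adjusted p = 0.25). The second set averaged 6.55 ± 0.52 in Young ND, 7.40 ± 0.38 in Old ND, 6.97 ± 0.23 in Old CR and 6.98 ± 0.23 in Old CR-ND. The dimmest averaged 4.30 ± 0.10, 5.20 ± 0.40, 4.63 ± 0.21 and 4.78 ± 0.34. On all 4 probe sets Old ND had the highest mean, and Old CR stood 0.08 to 0.56 below Old ND with 0 called. With the 4 averaged, Gpc6 was 0.57 higher in Old ND than in Young ND (limma adjusted p = 0.00293). The averaged differences of 0.27 in Old CR and 0.33 in Old CR-ND did not pass (adjusted p = 0.162 and 0.102).

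Gpc1 averaged 5.38 ± 0.11 in Young ND, 5.42 ± 0.30 in Old ND, 5.31 ± 0.13 in Old CR and 5.29 ± 0.07 in Old CR-ND, under the median gene level of 5.88. Its interval for Old ND minus Young ND was -0.18 to 0.26. Its product is a glypican of many adult tissues, and its single probe set gave no call in the 6 comparisons.

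Sdc2, a syndecan of fibroblasts and other mesenchymal cells, gave a different answer by probe set. On its brightest probe set Young ND mice had 9.81, 9.34, 9.25, 8.87 and 8.77, and Old ND mice 9.81, 9.11, 9.53, 9.48 and 9.18. Old CR mice had 9.85, 9.93, 9.53, 9.63 and 9.36, and Old CR-ND mice 9.77, 9.32, 9.51, 9.34 and 9.17. The groups overlapped, and the 2 lowest arrays were the Young ND arrays of the second run. Old ND minus Young ND was 0.21 ± 0.17 (adjusted p = 0.526), and Old CR minus Young ND was 0.45 ± 0.17 (adjusted p = 0.0993). Without Young ND replicate 1, the highest array of that group, the latter passed at 0.60 (adjusted p = 0.0159). Leaving out 1 array at a time moved the Old ND difference between 0.10 and 0.36, and it did not pass in any of these fits. The brightest probe set was lower in the second run, by 0.36 ± 0.10 (adjusted p = 0.0201). With each run fitted alone, the size of the Old ND difference varied. Old ND exceeded Young ND by 0.02 among first-run arrays and by 0.51 among second-run arrays. Neither of these passed (adjusted p = 0.977 and 0.0628). Old CR exceeded Young ND by 0.27 among first-run arrays, also without passing (adjusted p = 0.443). Its excess of 0.54 among second-run arrays rests on 1 Old CR array.

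The other 2 probe sets of Sdc2 come from the same transcript record as the brightest. The second averaged 8.59 ± 0.24 in Young ND, 9.23 ± 0.29 in Old ND, 9.25 ± 0.17 in Old CR and 9.25 ± 0.14 in Old CR-ND. It rose by 0.64 ± 0.13 in Old ND (adjusted p = 0.00227), by 0.66 in Old CR (adjusted p = 0.00164) and by 0.65 in Old CR-ND (adjusted p = 0.00288). Set 3 rose by 0.49 ± 0.14 in Old ND (adjusted p = 0.0209) and by 0.63 in Old CR (adjusted p = 0.0037), and it stood 0.40 higher in Old CR-ND without passing (adjusted p = 0.088). Leaving out any 1 of 5 arrays ended its Old ND call (adjusted p up to 0.0622). With the mean of the 3 probe sets Sdc2 was higher in all 3 old groups, by 0.45 in Old ND (adjusted p = 0.0138), 0.58 in Old CR (adjusted p = 0.00181) and 0.42 in Old CR-ND (adjusted p = 0.0288). Why the 3 sets differ was not tested.

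The rest of these pathways was read from 11 gene lists with 88 of 99 genes measured. In Old ND against Young ND 4 of the 88 were higher and 12 lower, where 4.45% of all genes were higher and 6.49% lower, and their median difference was -0.02 beside 0 for all genes. In Old CR against Young ND 5 were higher and 8 lower, where 7.11% of all genes were higher and 5.56% lower. In Old CR-ND 3 were higher and 6 lower, where 3.22% and 3.82% of all genes were. In Old CR against Old ND 1 was called, and in the other 2 comparisons between old groups 0 were called by limma.

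Of the chondroitin and dermatan sulfate genes, which build the chains that versican carries, 4 of 15 fell in Old ND, 2 of 15 in Old CR and 2 of 15 in Old CR-ND, and none rose. The median of this list in Old ND was 0.07. Chpf, a factor that extends chondroitin chains, had levels from 8.90 to 9.90 in Young ND and from 8.09 to 8.57 in Old ND, with no overlap. It fell by 1.08 ± 0.18 in Old ND (2.11-fold, adjusted p = 0.000296), by 0.97 in Old CR (adjusted p = 0.000799) and by 0.96 in Old CR-ND (adjusted p = 0.00156). Chst12, a sulfotransferase of chondroitin chains, fell from 8.81 ± 0.32 to 8.09 ± 0.10 in Old ND (-0.73 ± 0.14, adjusted p = 0.00124), with -0.40 and no call within the second run (adjusted p = 0.187). Its mean in Old CR was 8.57 ± 0.22, 0.49 above Old ND without passing (adjusted p = 0.0687). In Old CR-ND it was 0.54 ± 0.14 below Young ND (adjusted p = 0.0203), a call lost on leaving out any 1 of 3 arrays (adjusted p up to 0.0705). Chst11, another such sulfotransferase, fell by 0.86 ± 0.23 in Old ND (adjusted p = 0.0175), which was lost on leaving out Young ND replicate 4 or 5 (adjusted p up to 0.0575). It also fell by 0.99 ± 0.23 in Old CR (adjusted p = 0.00594), and that call held on leaving out each array in turn (adjusted p up to 0.0212).

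Of the heparan sulfate genes, 2 of 20 rose and 1 of 20 fell in Old ND, with a median of -0.03. Sulf1, which removes sulfate groups from heparan sulfate outside the cell, rose from a mean of 7.28 ± 0.32 in Young ND to 8.41 ± 0.19 in Old ND, or by 1.13 ± 0.16 (2.18-fold, adjusted p = 4.2e-05). It also rose by 0.78 in Old CR (adjusted p = 0.00167; 0.50 and adjusted p = 0.0859 within the first run) and by 1.17 in Old CR-ND (adjusted p = 5.36e-05). Sulf2, the other enzyme of this kind, averaged 11.14 ± 0.14 in Young ND, 10.40 ± 0.46 in Old ND, 11 ± 0.13 in Old CR and 10.80 ± 0.09 in Old CR-ND. It fell by 0.74 ± 0.15 in Old ND (adjusted p = 0.00202), but by the mean of its probe sets the difference was -0.21 (adjusted p = 0.246), and within the second run it was -0.27 (adjusted p = 0.308). Sulf2 was also the 1 gene called in Old CR against Old ND, 0.60 ± 0.15 higher (adjusted p = 0.0362), which was lost on leaving out any 1 of the 5 Old CR arrays or Old ND replicate 1 or 3, with adjusted p between 0.0557 and 0.107.

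Of the other syndecan genes 1 of 3 fell in Old ND. Sdc4, a syndecan of cell-matrix contacts, averaged 11.64 ± 0.11 in Young ND and fell by 0.40 ± 0.09 in Old ND (adjusted p = 0.00573), by 0.44 in Old CR (adjusted p = 0.00252) and by 0.39 in Old CR-ND (adjusted p = 0.0111). Within the first run its Old ND difference was -0.32 (adjusted p = 0.123). Sdc3 (0.04 ± 0.20) and Sdcbp (-0.18 ± 0.11), which encodes a protein that binds syndecan tails, did not pass in Old ND. Of the other glypican genes Gpc4 had a mean of 10.38 ± 0.13 in Young ND and of 10.39 ± 0.25 in Old ND, and Gpc2 and Gpc5 lay below the lower quartile of the arrays in all 4 groups by their means. Notum, an extracellular enzyme that acts on Wnt proteins and glypicans, fell from 4.87 ± 0.09 to 4.44 ± 0.12 in Old ND (adjusted p = 0.000668), at a level under that of the median gene. It also fell by 0.38 in Old CR (adjusted p = 0.00201) and by 0.45 in Old CR-ND (adjusted p = 0.000754).

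Of the hyaluronan binding genes 2 of 13 rose and none fell in Old ND, with a median of -0.01. Layn, a receptor for hyaluronan, rose by 0.59 ± 0.10 in Old ND (adjusted p = 0.000591), 0.43 in Old CR (adjusted p = 0.00776) and 0.57 in Old CR-ND (adjusted p = 0.00148), with 0.44 and no call in Old ND within the second run (adjusted p = 0.0741). Itih5, whose family of proteins attaches to hyaluronan, averaged 5.72 ± 0.80 in Young ND, 7.27 ± 1.13 in Old ND, 5.56 ± 0.35 in Old CR and 6.48 ± 0.78 in Old CR-ND. Its rise in Old ND (1.55 ± 0.46, adjusted p = 0.0315) ended without any 1 of Old ND replicates 1 and 3 and Young ND replicates 3, 4 and 5 (adjusted p from 0.0713 to 0.0944). Its difference of Old CR from Old ND, -1.71, missed the threshold (adjusted p = 0.0527) and passed once runs were blocked (-1.84, adjusted p = 0.0176).

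Of the remaining hyaluronan synthesis genes, Ugp2, which makes the UDP-glucose from which the chain's sugars derive, fell by 0.73 ± 0.20 in Old ND (adjusted p = 0.0218), which was lost on leaving out any 1 of Old ND replicates 2 and 3 and Young ND replicates 4 and 5 (adjusted p up to 0.0683). Has3, the third synthase, had means of 4.20 ± 0.16 (Young ND) and 4.05 ± 0.10 (Old ND), near the lower quartile (-0.15 ± 0.09, adjusted p = 0.341). Of 5 other genes of hyaluronan breakdown 0 were called in Old ND. Cemip2, a cell-surface hyaluronidase, was 0.58 ± 0.16 lower in Old CR than in Young ND (adjusted p = 0.0155). In Old CR-ND it was 0.53 ± 0.16 lower (adjusted p = 0.043), a call lost on leaving out any 1 of 6 arrays (adjusted p up to 0.137). Of 7 versican-cleaving proteases 0 were called in Old ND, and Adamts5, an enzyme that cuts versican and aggrecan, rose by 0.65 ± 0.14 in Old CR (adjusted p = 0.00404). Adamts5 also rose by 0.49 ± 0.14 in Old CR-ND (adjusted p = 0.0409), a call lost on leaving out any 1 of 6 arrays (adjusted p up to 0.13). Of 6 genes for lecticans and link proteins 1 fell in Old ND, Hapln4, a link protein gene (-0.41 ± 0.09, adjusted p = 0.005). Within the second run this difference was -0.34 (adjusted p = 0.286). Hapln4 was also lower than in Young ND in Old CR (-0.55 ± 0.09, adjusted p = 0.000349) and Old CR-ND (-0.47 ± 0.09, adjusted p = 0.00253). Of 4 genes for the linker between chain and core protein 2 fell in Old ND, B3galt6 (-0.44 ± 0.10, adjusted p = 0.00563) and B3gat3 (-0.28 ± 0.07, adjusted p = 0.0102). The B3galt6 difference was -0.41 within the second run (adjusted p = 0.0838), and that of B3gat3 was 0.03 by the mean of its probe sets. B3galt6 also fell in Old CR (-0.33 ± 0.10, adjusted p = 0.0325), a call lost on leaving out any 1 of 6 arrays (adjusted p up to 0.0983). Of 8 genes of lysosomal breakdown 1 fell, Naglu (-0.67 ± 0.19, adjusted p = 0.0269), which was lost on leaving out any 1 of Old ND replicates 2 and 5 and Young ND replicates 1 and 2 (adjusted p up to 0.0924).

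Several further list genes passed in 1 comparison but lay close to the threshold. Chpf2, another chondroitin chain gene, fell by 0.37 ± 0.11 in Old ND (adjusted p = 0.027), which did not hold without Old ND replicate 4 or without Young ND replicate 1, 2 or 5 (adjusted p up to 0.0914). Extl1, of the heparan sulfate list, was 0.30 ± 0.09 higher in Old ND (adjusted p = 0.0472), which held only when the array left out was Old ND replicate 4 (otherwise up to 0.128). Adamts9, a protease gene, averaged 4.24 in Old CR and 5.88 in Young ND (-1.64 ± 0.53, adjusted p = 0.0479), which held only when the array left out was Young ND replicate 3 (otherwise up to 0.134). The lysosomal genes Hgsnat (0.25 ± 0.07, adjusted p = 0.029) and Ids (0.37 ± 0.10, adjusted p = 0.0211) were higher in Old CR than in Young ND. Hgsnat no longer passed without Old CR replicate 1 or 4 or Young ND replicate 3, 4 or 5 (adjusted p up to 0.0809), and Ids no longer passed without Old CR replicate 1 or 2 or Young ND replicate 4 or 5 (up to 0.0654).

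**Figure D4:**
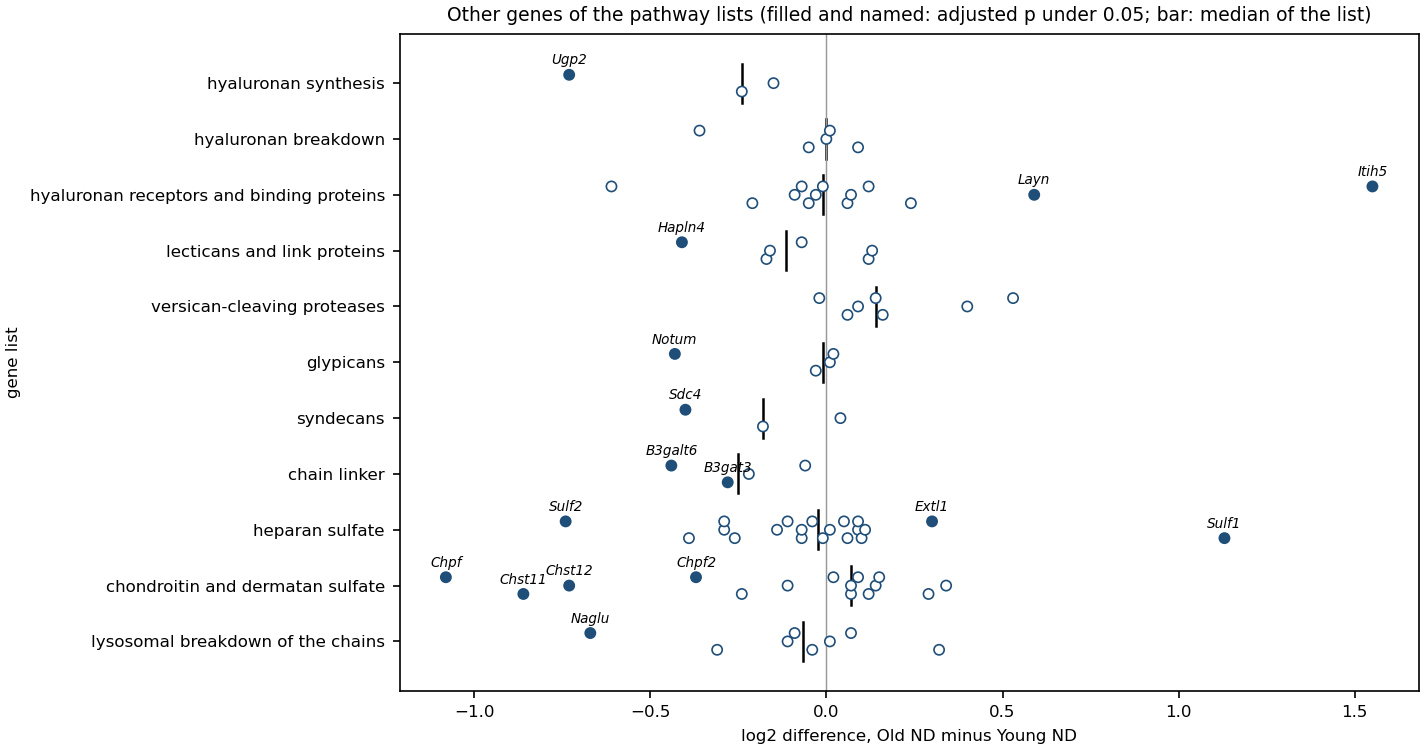
Difference of Old ND from Young ND on the log2 scale for the 88 other genes of the 11 pathway lists, 1 point per gene, filled and named where the adjusted p is under 0.05, with a bar at each list's median. Sulf1 at 1.13 and Itih5 at 1.55 lie farthest right and Chpf at -1.08 farthest left.

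The genes whose levels ran most like Has2, Cd44 and Vcan were sought among 8547 genes above the median gene level, as a description over the 20 arrays, which share the run and the group differences. Has2 ran most like Higd1a (Pearson r = 0.91, Spearman rho = 0.89, r = 0.87 without the 2 arrays farthest from the Has2 median) and Timm23 (0.90, 0.90 and 0.87). Cd44 ran most like Rnf217 (0.94, 0.94 and 0.90) and Stx11 (0.92, 0.91 and 0.89). Stx11 averaged 8.98 ± 0.41 in Young ND, 8.73 ± 0.35 in Old ND, 7.87 ± 0.49 in Old CR and 8.61 ± 0.38 in Old CR-ND, the order of Cd44. Vcan ran most like Sh2b3 (0.92, 0.90 and 0.89) and Plod1 (0.91, 0.91 and 0.84). Plod1, a collagen lysyl hydroxylase, averaged 9.07 ± 0.49 in Young ND and 7.63 ± 0.53, 7.61 ± 0.31 and 7.79 ± 0.39 in Old ND, Old CR and Old CR-ND.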

How the data were processed

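RNA of sorted dermal fibroblasts was measured on 20 Affymetrix arrays, 1 per mouse. The deposited values are log2 levels per probe set with 2 decimals, made by the authors with RMA and affy per the submitters' processing notes, with versions not given in the sources used here. Arrays have no read depth, so precision is set by how many there are. Among 45141 probe sets, 28898 named 1 gene in the platform annotation and were used, 551 named several and 15692 none. Symbols were updated through Entrez numbers against a RefSeq table of GRCm38.p6 (28689 probe sets matched). Per gene the brightest probe set by its mean over the 20 arrays was kept. Gpc3 and Sdc1 are not analysed here.

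Groups were taken from the labels and replicates numbered in accession order. A single fit over the arrays used limma 3.58.1 (lmFit, then eBayes; R 4.3.3) with 1 mean per group, with 6 two-sided contrasts and the moderated F test, which has 16 residual and 4.19 prior degrees of freedom, Benjamini-Hochberg over 17097 genes and a threshold of 0.05. The code was tested on simulated data. The genes and lists were chosen with earlier results of these data known. All 10 genes were to be named. Of the lists, the up to 4 called genes of lowest adjusted p per comparison were named, and the other glypicans, the other syndecans and Has3 always. For each gene called in the F test, the 2 genes with the highest Pearson r were named. The alternatives were leaving out dim genes, averaging the probe sets of a gene or fitting each, a repeated quantile normalization, median-centred arrays, array weights, a trended and robust eBayes, fitting 2 groups alone, the run as a block and each run alone, a threshold of 0.10 and omitting each array.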

Additional observations from a re-analysis of the deposited data

Results flagged for a closer look

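In 4 of 32 sets of 5 arrays (8 genes in 4 groups), 1 array stood apart from the other 4 by Dixon's test at the 95% level, which chance alone gives in about 1 of 20 sets. The Cd44 level of Old ND replicate 2 was 8.17, where the other 4 Old ND mice lay between 9.19 and 9.59. The Gpc6 level of Young ND replicate 3 was 7.63, where the other 4 lay between 7.30 and 7.38. The Hyal1 level of Old CR-ND replicate 1 was 7.58, where the others lay between 6.92 and 7.11. The Gpc1 level of Old ND replicate 3 was 5.93, where the others lay between 5.17 and 5.39.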

How the results depend on the processing

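Of the 8 genes, 2 were called in Old ND against Young ND. That count was 4 with probe sets averaged per gene and 4 with every probe set, where Vcan and Sdc2 were added. With every probe set a gene counted if any of its probe sets passed, so genes with more sets had more chances. The Vcan call there came from the dim set at 4.39 in Young ND. The share of all genes called under these alternatives was not computed. The count was 1 with array weights, 1 with only the 2 groups compared and 1 in the first run only, where Gpc6 was lost each time. In Old CR-ND against Young ND 2 were called, 4 with every probe set and 0 in the first run only. In the F test 3 were called, 5 with probe sets averaged per gene, 5 with every probe set and 1 in the first run only. Leaving out 1 array at a time gave 2 to 3 calls for Old ND, 2 to 4 for Old CR and 1 to 3 for Old CR-ND against Young ND, 0 to 1 for Old CR against Old ND, 0 in both other comparisons between old groups, and 1 to 3 in the F test. The causes of these shifts were not tested. Under all alternatives, 1292 tests of single genes among the 8 kept their side of the threshold, 27 passed newly and 48 no longer passed. Of 1128 such differences between 2 groups, 68 changed sign, all of them below the threshold on both sides and no larger than 0.19 over all arrays, and 0 changed sign where either side passed. The same alternatives for the list genes, and the runs and left-out arrays for each probe set, were chosen after seeing the data. There, 216 of 4770 differences changed sign with neither side past the threshold, and 2 did so where 1 side passed. B3gat3 in Old ND against Young ND was 0.03 by the mean of its probe sets (adjusted p = 0.91), and Adamts9 was -0.85 within the second run (adjusted p = 0.0295), against 0.06 over all arrays. The second run holds 1 Old CR array. No paired analysis was possible because the labels give no replicate numbers shared between groups.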
